A study of Mus musculus with 5 samples.

Results

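The genes of pleiotrophin, its relative midkine, 2 receptors and 6 proteins of the extracellular matrix around neurons were read in RNA pulled down with tagged ribosomes. The set held 10 genes of the 32531 listed per library, Ptn, Mdk, Ptprz1, Sdc3, Bcan, Ncan, Vcan, Hapln1, Hapln4 and Tnr, and was drawn up because Ptn was higher in cortex. The level of Ptn by tissue is therefore given as a description with no test. There were 2 libraries from cerebral cortex (replicates 1 and 2) and 3 from dentate gyrus (replicates 1, 2 and 3), the granule cell region of the hippocampal formation. All came from untreated adult mice that carry the Rbp4-Cre (KL100) driver and Rosa26-LSL-EGFP/Rpl10a, a ribosomal protein tagged with EGFP that is made only in cells with Cre. In translating ribosome affinity purification (TRAP), an antibody against EGFP pulls the tagged polysomes, and the RNA on them, out of homogenized tissue. KL100 is widely used to reach pyramidal neurons of cortical layer 5, though the labels leave the targeted cells unnamed. Every library was an immunopurified fraction, and neither an unpurified input nor an untagged control was analysed here, so RNA of neighbouring cells that stuck to the beads could not be measured. Whether replicates came from separate animals is not in the labels. The p-values therefore reflect the spread among these samples only, and that spread may be technical. Libraries are called cortex 1 and 2 and dentate gyrus 1 to 3 below.

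Pleiotrophin (Ptn) is a small secreted growth factor that binds heparin and other sulfated sugar chains, and midkine (Mdk) is the other member of its family. Ptn acts through the receptor tyrosine phosphatase Ptprz1, which carries chondroitin sulfate, and through the heparan sulfate proteoglycan syndecan-3 (Sdc3). Perineuronal nets are lattices around the soma and proximal dendrites of some neurons, best known from parvalbumin interneurons. In them hyaluronan is bound by lecticans (aggrecan, brevican, neurocan and versican, from Acan, Bcan, Ncan and Vcan), held by link proteins (Hapln genes) and crosslinked by tenascin-R (Tnr).

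Gene counts summed to between 22600963 and 36837908 per library. Levels are given as CPM, counts scaled to a common library total, with library sizes scaled by trimmed mean of M values, and a floor of 3 counts was 0.0828 to 0.133 CPM in single libraries. Differences are cortex minus dentate gyrus, from the quasi-likelihood test of edgeR, adjusted by Benjamini and Hochberg's method over all 14136 genes tested, and a gene was called at an adjusted p under 0.05. Of all tested genes 21.3% were called, 10.8% higher and 10.5% lower in cortex. These shares are the background for every list count below, and no list was tested against them. Of 8 genes listed as layer 5 markers, 6 were higher in cortex, Fezf2, Etv1, Deptor, Parm1, Tshz2 and Rorb. Of these, Rorb is not specific to layer 5. Bcl11b was the 1 lower in cortex. Its mean was 93.8 ± 8.97 CPM (SD, n = 2) in cortex and 332 ± 33.5 CPM (SD, n = 3) in dentate gyrus. Of 8 granule cell markers, 8 were lower in cortex. Both lists were chosen with earlier results of these data known, so these counts are not an independent check of the tissues. A library of each tissue stood apart. Car8 reached 411 CPM in cortex 1, with 1.44 CPM in the other cortex library, and Dcn reached 114 CPM in dentate gyrus 2, against 1.71 and 10.5 CPM in dentate gyrus 1 and 3.

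Ptn was an abundant transcript in cortex and a low one in dentate gyrus. It had 250 and 264 CPM in cortex 1 and 2, against 14.2, 16 and 13.8 CPM in dentate gyrus 1, 2 and 3. The cortex libraries lay close together, as did the dentate gyrus libraries, and the tissues did not overlap. Cortex averaged 257 ± 9.7 CPM (SD, n = 2) and dentate gyrus 14.7 ± 1.19 CPM (SD, n = 3), a fitted fold of 17.5 and a log2 fold change of 4.13 (SE 0.17). In these bulk pulldowns, fewer cells of a type and less RNA per cell cannot be told apart. Ptn lies on chromosome 6 from 36714929 to 36810220 on the minus strand in GENCODE M21 (GRCm38, the same build as mm10), and no annotated gene overlaps it on the opposite strand.

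Mdk was almost absent from both tissues. It had 8 and 2 counts in cortex 1 and 2, against 1, 0 and 0 counts in dentate gyrus 1, 2 and 3, and was too low to be tested. The ratio of the summed counts was 14.2 with an exact 95% interval of 2.02 to 615. Intervals on counts, here and for every share and ratio below, cover counting error only and not the spread between libraries. Of this family of ligands, Ptn was thus the one with appreciable RNA in these pulldowns.

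The stretches upstream of the start sites of Ptn, Ptprz1 and Tnr are shown because Ptn stood higher in cortex, whereas Ptprz1 and Tnr, with values given below, stood lower there. They are from RefSeq on GRCm38.p6, read 5′ to 3′ on the gene's strand up to the base before the start. The Ptn stretch, chr6:36810221-36810429 on the minus strand, ends at the GENCODE start, 41 bases before that of RefSeq. Ptprz1 is chr6:22875252-22875501 and Tnr is chr1:159523519-159523768, both on the plus strand. Capitals mark matches, on either strand, to a TATA box (TATAAA), a GC box (GGGCGG), a bHLH E-box (CAGATG) or a CRE half-site (TGACG). They also mark a loose MEF2-like pattern (CTA, any 4 bases, TAG), which accepts more than MEF2 sites.
Ptn: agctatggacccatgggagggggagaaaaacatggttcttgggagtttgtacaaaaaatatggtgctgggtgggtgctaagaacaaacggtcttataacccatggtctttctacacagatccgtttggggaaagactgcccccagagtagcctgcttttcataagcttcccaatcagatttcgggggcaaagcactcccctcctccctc
Ptprz1: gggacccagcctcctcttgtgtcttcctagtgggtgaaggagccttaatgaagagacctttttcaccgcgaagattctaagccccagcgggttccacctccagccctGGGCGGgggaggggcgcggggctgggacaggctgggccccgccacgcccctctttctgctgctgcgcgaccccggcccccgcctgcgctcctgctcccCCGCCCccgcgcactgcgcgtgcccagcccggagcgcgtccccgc
Tnr: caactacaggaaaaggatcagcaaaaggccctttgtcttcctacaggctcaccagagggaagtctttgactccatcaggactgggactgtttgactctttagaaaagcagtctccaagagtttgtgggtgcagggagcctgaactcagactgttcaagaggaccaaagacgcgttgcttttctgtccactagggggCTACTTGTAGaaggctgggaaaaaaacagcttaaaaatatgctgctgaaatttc

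The 250 bases before the start were searched in the 8 members with a RefSeq entry, all but Mdk and Hapln4. The Hapln1 window lay wholly inside the GENCODE gene, which starts further upstream, and 29 bases of the Ncan window lay inside its gene. Ptn held none of the 5 motifs. Ptprz1 held 2 GC boxes and Tnr 1 match to the MEF2-like pattern. A GC box stood in Ptprz1, Sdc3, Bcan, Ncan and Vcan, and in 32.7% of the 32851 promoters of the table. The MEF2-like pattern stood in 3.2% of those promoters and, among the 8, in Tnr. Since the pattern takes any base at its middle positions, a match need not be a MEF2 site. The TATA letters stood in 12.4% and, among the 8, in Ncan on the reverse strand, within those 29 bases. No member held the E-box, found in 14.4%, and Sdc3 held the CRE half-site, found in 17.8%. GC content was 52% for Ptn, 71.6% for Ptprz1 and 46.8% for Tnr, with a median of 52.4% over all promoters. These matches describe the letters of the window and say nothing of which factor binds there.

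The receptor Ptprz1 ran the other way from its ligand. It had 54.3 and 28.8 CPM in cortex 1 and 2, against 136, 195 and 257 CPM in dentate gyrus 1, 2 and 3. Each cortex library lay below each dentate gyrus library, although the libraries of a tissue were spread widely. The log2 fold change was -2.24 (SE 0.33) with an adjusted p of 0.00107 by edgeR. Ptprz1 lies on chromosome 6 from 22875502 to 23052916 on the plus strand. The fold change lay between -2.77 (without cortex 1) and -1.82 (without cortex 2) when each library was left out, and stayed called each time. Per kilobase of merged exons, Ptn stood 19.1 and 38 times as high as Ptprz1 in the cortex libraries, against 0.432, 0.341 and 0.223 times in dentate gyrus 1, 2 and 3. These ratios depend on the length used. Merged exons were 3433 bases for Ptn and 14245 for Ptprz1, and the longest transcripts 2558 and 8068. Ptprz1 is also a gene of astrocytes and of oligodendrocyte precursors. Of 8 precursor markers, 2 were higher and 0 lower in cortex, and their summed level was 27.8 and 40 CPM in cortex, against 8.5, 22 and 24.6 CPM in dentate gyrus. The defining precursor marker Pdgfra was at 2.59 and 5.46 CPM in cortex, against 1.6, 4.31 and 6.19 CPM in dentate gyrus. Of 12 astrocyte markers, 5 were higher and 1 lower in cortex, with sums of 1266 and 1316 CPM in cortex, against 981, 1089 and 1265 CPM in dentate gyrus. The astrocyte markers higher in cortex were Aldh1l1 (log2 fold change 7.07), S100b (4.55), Sox9 (2.75), Aldoc (2.43) and Slc1a2 (0.63). The one lower was the bicarbonate cotransporter gene Slc4a4 (-2.69). The 6 not called were Aqp4 (-0.61), Gfap (-1.55), Slc1a3 (-1.16), Gja1 (-0.66), Fgfr3 (-0.36) and Gjb6 (0.94). Most of the astrocyte sums came from Slc1a2, at 984 and 1004 CPM in cortex, against 595, 619 and 717 CPM in dentate gyrus. No marker of either list was at 0 in all libraries, and their part in the Ptprz1 result was not tested.

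Syndecan-3 was not called. Sdc3 had 47.9 and 55.6 CPM in cortex, against 29.3, 46.3 and 35.8 CPM in dentate gyrus. The tissues did not overlap, but dentate gyrus 2 came close to the lower cortex library. The log2 fold change of 0.48 (SE 0.26) did not pass (adjusted p 0.233 by edgeR). Sdc3, like Vcan and Hapln1, overlaps annotated genes on the opposite strand, whose reads cannot be told apart from its own here.

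Neurocan was the most abundant lectican, also per kilobase of exons, and was similar between the tissues. Ncan, a chondroitin sulfate proteoglycan of the brain matrix, had 591 and 695 CPM in cortex, against 597, 608 and 676 CPM in dentate gyrus. Its log2 fold change was 0.035 (SE 0.12, adjusted p 0.876), and it was -0.053 without cortex 2. It took 97.83% and 98.2% of lectican counts in cortex, against 96.84%, 98.08% and 95.35% in dentate gyrus, where the lowest share had a Wilson 95% interval of 95.04% to 95.65% for counting error, narrower than the spread between libraries. Brevican (Bcan) had 5.56 and 2.58 CPM in cortex, against 5.38, 2.22 and 7.67 CPM in dentate gyrus. Its log2 fold change of -0.32 (SE 0.73) did not pass and turned to 0.16 without cortex 2 and to 0.12 without dentate gyrus 3. Versican (Vcan) had 7.47 and 9.68 CPM in cortex, against 12.6, 9.55 and 24 CPM in dentate gyrus. Its log2 fold change of -0.84 (SE 0.48) did not pass (adjusted p 0.261). Aggrecan (Acan), the lectican by which nets are usually recognised, was low. Acan had 3 and 11 counts in cortex, against 55, 3 and 32 counts in dentate gyrus, and was not called.

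Of the link proteins, Hapln4 was high in cortex. Hapln4 (chromosome 8, 70083457 to 70090862, plus strand), a link protein that partners brevican at perisomatic synapses, had 204 and 197 CPM in cortex, against 12.8, 20.9 and 26 CPM in dentate gyrus. The lowest cortex library stood far above the highest dentate gyrus library. The log2 fold change was 3.34 (SE 0.27), a fitted fold of 10.1, with an adjusted p of 2.92e-05 by edgeR. It was 3.30 without cortex 1, the library with high Car8, and 3.11 to 3.59 without single dentate gyrus libraries. Hapln1 went the opposite way in its means but varied widely. It had 1.34 and 3.04 CPM in cortex, against 10.9, 1.29 and 4.5 CPM in dentate gyrus, overlapped between tissues and did not pass (log2 fold change -1.35, SE 0.93, adjusted p 0.36). Hapln2 had 2 and 30 counts in cortex, against 0, 0 and 11 counts in dentate gyrus, and was not called. Hapln3 had 0 counts in cortex and 3 counts in dentate gyrus, all in dentate gyrus 3. Hapln4 took 99.32% and 97.88% of link protein counts in cortex, with Wilson 95% intervals of 99.1% to 99.48% and 97.44% to 98.25%. It took 54.02%, 94.2% and 83.71% in dentate gyrus, where the interval of the lowest was 50.67% to 57.32% for counting error, far narrower than the spread between libraries.

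Tenascin-R was lower in cortex. Tnr (chromosome 1, 159523769 to 159931729, plus strand, with Gm38039 annotated on the opposite strand) had 48.8 and 44.9 CPM in cortex, against 110, 63.9 and 94.1 CPM in dentate gyrus, with no overlap. The log2 fold change was -0.93 (SE 0.25, adjusted p 0.0256 by edgeR). The call rested on all but 1 of the libraries: the adjusted p was 0.0931 without cortex 1, 0.156 without cortex 2, 0.0732 without dentate gyrus 1 and 0.0683 without dentate gyrus 3. Tnr is known in oligodendrocytes and their precursors as well as in neurons. Of 9 tested oligodendrocyte markers, 2 were higher and 0 lower in cortex, with sums of 239 and 330 CPM in cortex, against 227, 176 and 239 CPM in dentate gyrus. None of them was at 0 in all libraries, and their part in the Tnr result was not tested. Tenascin-C (Tnc) was untested, with 89 and 8 counts in cortex, against 0, 8 and 6 counts in dentate gyrus. Tnn was untested, with 2 counts over the cortex libraries and 0 over the dentate gyrus libraries. Tnxb had 14 and 5 counts in cortex, against 83, 15 and 35 counts in dentate gyrus, and was not called.

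**Figure D1:**
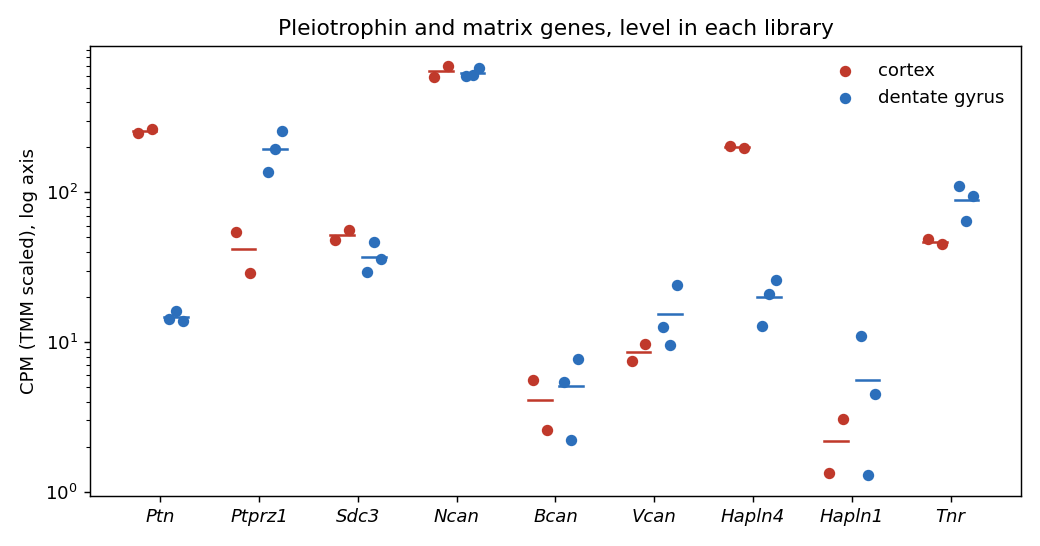
CPM on a log axis for 9 member genes in each library, cortex in red and dentate gyrus in blue, with a short line at each tissue mean; Mdk, at 0 to 8 counts, is left out. Ptn and Hapln4 stand at 197 to 264 CPM in cortex and at 12.8 to 26 CPM in dentate gyrus, Ptprz1 and Tnr run the other way, and Ncan is similar in both at 591 to 695 CPM.

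Counting the members other than Ptn, 8 of 9 passed the filter on low counts. Of these 8, Hapln4 was higher in cortex, Ptprz1 and Tnr were lower, and 5 did not pass. With no overlap between tissues there were 4, Hapln4, Ptprz1, Tnr and Sdc3, where 50.1% of all tested genes had none. These counts are set beside the background of 21.3% called without a reading, since the set was chosen on this contrast.

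**Figure D2:**
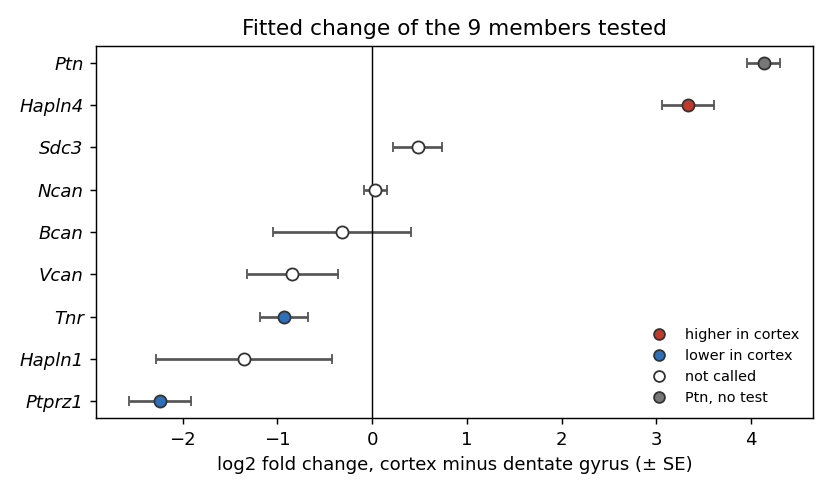
Log2 fold change, cortex minus dentate gyrus, with its SE for the 9 members tested; red and blue mark genes called higher and lower in cortex, white genes not called, and grey Ptn, which has no test. Values run from -2.24 for Ptprz1 to 4.13 for Ptn, and the bars of Bcan and Hapln1 are the widest.

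Levels between genes were compared per kilobase of merged exons. In cortex the order was Ncan (89.3 ± 10.2 CPM per kilobase, SD, n = 2), Ptn (74.9 ± 2.83), Hapln4 (51.1 ± 1.28), Sdc3 (8.64 ± 0.91), Tnr (3.64 ± 0.21), Ptprz1 (2.92 ± 1.27), Bcan, Vcan, Hapln1 and Mdk. Tnr and Ptprz1, and each neighbouring pair from Bcan down to Mdk, lay within the sum of their SDs. In dentate gyrus Ncan again led (87.2 ± 5.92 CPM per kilobase, SD, n = 3), followed by Ptprz1 (13.8 ± 4.26), Tnr (6.93 ± 1.81), Sdc3 (6.2 ± 1.43), Hapln4 (5.07 ± 1.69), Ptn (4.27 ± 0.35), Bcan, Vcan, Hapln1 and Mdk. There the neighbours from Tnr to Ptn, and from Bcan to Hapln1, lay within the sum of their SDs. Ptn thus held rank 2 of 10 in cortex and rank 6 of 10 in dentate gyrus. With the longest transcript as the length, Ptn ranked 1, Ncan 2, Ptprz1 5 and Tnr 6 in cortex. In dentate gyrus Sdc3 then ranked 3, Tnr 4, Ptn 5 and Hapln4 6.

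Genes were ranked by how closely they followed Ptn across the libraries, as a description with no test. Likeness was the root mean square difference of centred log2 CPM over the 5 libraries, among 7904 genes with a mean of at least 10 CPM. The nearest was Tyro3, a receptor tyrosine kinase gene, at 0.09 log2 units, with 52.8 and 59.2 CPM in cortex, against 3.56, 3.82 and 3.21 CPM in dentate gyrus. Next came the zinc finger gene Hivep1 (0.11), Stac2 (0.24), the calcineurin regulator gene Rcan2 (0.24) and the ETS factor gene Etv5 (0.25). Hapln4 ranked 29 at 0.49, Sdc3 ranked 1750 and Ptprz1 ranked 7734. All of these share the same 5 libraries, and the tissue difference dominates the measure. The nearest genes were picked by this ranking, so their standing closer than the partners of Ptn was fixed in advance.

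The wider receptor list held 12 genes, of which 10 were tested. In it 4 were higher in cortex, 2 lower and 4 not called, with a median log2 fold change of 0.46 beside -0.017 over all tested genes. Itgb3, an integrin subunit gene, was at 6.04 and 15.8 CPM in cortex and at 0 counts in every dentate gyrus library. Its cortex mean was 306 times a floor of 3 counts over the dentate gyrus libraries, a figure that carries the wide spread between the cortex libraries. Cspg5 (neuroglycan C), a transmembrane proteoglycan, had 62.7 and 62.1 CPM in cortex, against 22.7, 27.3 and 29.4 CPM in dentate gyrus (log2 fold change 1.24, SE 0.23). Nrp1, a neuropilin that also binds semaphorins, was lower in cortex, at 40.7 and 24.9 CPM, against 90.4, 88.1 and 110 CPM in dentate gyrus (log2 fold change -1.55, SE 0.26). Ptprs, a phosphatase receptor for sulfated chains, was higher in cortex by 0.68 (SE 0.14), but its adjusted p was 0.0706 without cortex 1. Ncl, named after its value was seen, had a log2 fold change of 0.45 and an adjusted p of 0.0311, which was 0.0697 without cortex 1, 0.152 without cortex 2, 0.0503 without dentate gyrus 1 and 0.0893 without dentate gyrus 3. Itgb3 and Cspg5 were the 2 higher in cortex without cortex 1, and Itgb3 the 1 with cortex 1 and dentate gyrus 2 both left out, where the Cspg5 adjusted p was 0.0603. Lrp1, an endocytic receptor, was level at 103 and 93.6 CPM in cortex, against 116, 76.2 and 87.2 CPM in dentate gyrus, with a log2 fold change of 0.08 that was -0.031 without dentate gyrus 2. Alk, the receptor kinase reported for Ptn and Mdk, had 8 and 10 counts in cortex, against 4, 7 and 3 counts in dentate gyrus, and was too low to be tested. Ltk, its relative, had 2.99 CPM in each cortex library, against 0.745, 1.29 and 1.37 CPM in dentate gyrus, and was not called.

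Among cell surface heparan sulfate carriers, 2 of 7 tested syndecans and glypicans were higher in cortex and 2 lower (median log2 fold change 0.83). Glypican-4 (Gpc4), known in astrocytes for promoting synapse formation, was at 22.9 and 35.1 CPM in cortex, against 158, 147 and 155 CPM in dentate gyrus (log2 fold change -2.40, SE 0.22, adjusted p 6.83e-05). Gpc3 was low in both tissues, at 0.827 and 0.205 CPM in cortex, against 2.93, 9.19 and 5.44 CPM in dentate gyrus. Its adjusted p was 0.0306, and it was 0.156, 0.107 and 0.0616 without cortex 2 and dentate gyrus 2 and 3, and 0.0874 by limma voom. Without cortex 1 and 2 in turn its log2 fold change was -4.81 and -2.78. Sdc2 (log2 fold change 1.23) and Gpc6 (1.94) were higher in cortex. The Sdc2 adjusted p was 0.132 without cortex 1. That of Gpc6 was 0.262 and 0.0829 without cortex 1 and 2, and 0.0946 and 0.105 without dentate gyrus 1 and 3, while its log2 fold change was 2.76 without dentate gyrus 2. The Gpc4 call was the one of the 4 that held without each library in turn.

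Other proteoglycan core proteins were led by the testicans. Of 12 tested, 3 were higher in cortex, 2 lower and 7 not called (median log2 fold change 0.047). Spock1 had 523 and 524 CPM in cortex, against 47.7, 110 and 91.9 CPM in dentate gyrus (log2 fold change 2.66, SE 0.28), and Spock2 had 457 and 413 CPM in cortex, against 214, 221 and 286 CPM in dentate gyrus (0.86, SE 0.15). Spock2 had an adjusted p of 0.0719 with cortex 1 and dentate gyrus 2 both left out, where the count higher in cortex was 1. Tgfbr3 (betaglycan) was lower in cortex, at 7.16 and 3.94 CPM, against 35.5, 24.5 and 27.9 CPM in dentate gyrus. Lum (lumican) had 1 count over the cortex libraries, against 366 over the dentate gyrus libraries, a ratio of 0.00387 with an exact 95% interval of 9.78e-05 to 0.0217 for counting error only. Dcn, the gene that marked dentate gyrus 2, had a log2 fold change of -0.46 that did not pass and was 2.34 (adjusted p 0.0411) without that library.

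For heparan sulfate, the chain that Ptn binds on syndecans and glypicans, 8 of 19 tested genes were higher in cortex and 1 lower. Over all tested genes 10.8% were higher and 10.5% lower. The list had a median log2 fold change of 0.9. Hs3st2, a 3-O-sulfotransferase of neurons, had 113 and 97.8 CPM in cortex, against 0, 0.222 and 0.901 CPM in dentate gyrus, where dentate gyrus 1 had no counts. Its log2 fold change of 8.22 (SE 0.79) was 7.53 without dentate gyrus 1 and 10.17 without dentate gyrus 3, and 2 annotated genes overlap it on the opposite strand. Sulf2, which removes 6-O-sulfates at the cell surface, had 153 and 144 CPM in cortex, against 10.5, 23 and 25.4 CPM in dentate gyrus (log2 fold change 2.92, SE 0.33). The N-sulfotransferases Ndst3 and Ndst4 went opposite ways. Ndst3 had 68.1 and 42.9 CPM in cortex, against 5.77, 10.1 and 13.4 CPM in dentate gyrus (log2 fold change 2.51, SE 0.38, adjusted p 0.00124). Ndst4 had 7.56 and 7.34 CPM in cortex, against 79.9, 50.8 and 40.9 CPM in dentate gyrus (log2 fold change -2.94, SE 0.35, adjusted p 0.000308). The other genes called higher in cortex were Ext1, Extl3, Hs3st4, Hs6st2 and Hs6st3, all 5 named after their values were seen. The number higher in cortex was 5 without cortex 2, with adjusted p of 0.0521 for Extl3, 0.0673 for Hs3st4 and 0.115 for Hs6st3. Without cortex 1 the adjusted p was 0.176 for Ext1 and 0.0684 for Hs3st4, and the Hs6st3 log2 fold change was 3.35 without dentate gyrus 1, against 2.76 with all libraries.

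**Figure D3:**
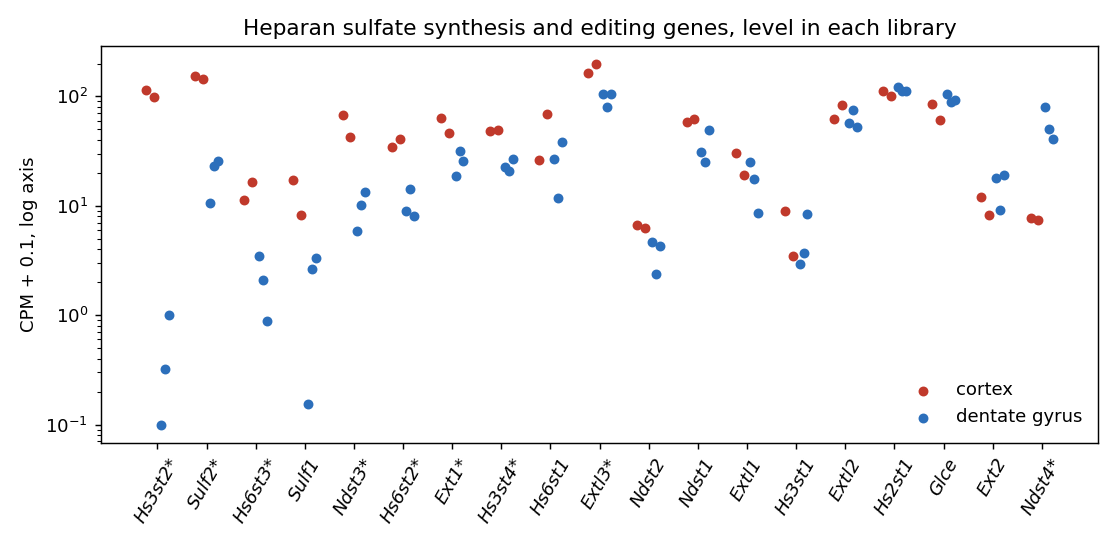
CPM plus 0.1 on a log axis for the 19 tested genes of heparan sulfate synthesis and editing, ordered by fold change, in each cortex library (red) and dentate gyrus library (blue); an asterisk marks genes called. Hs3st2 stands at 97.8 to 113 CPM in cortex and under 1 CPM in dentate gyrus, and Ndst4, at the right, is the 1 gene called lower in cortex.

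For chondroitin chains, which line the lecticans and Ptprz1, 2 of 12 tested genes of chain synthesis were higher in cortex and 0 lower (median log2 fold change 0.39). Fam20b, a xylose kinase that acts early in chain assembly, had 36.7 and 36.8 CPM in cortex, against 9.77, 14.3 and 22.2 CPM in dentate gyrus (log2 fold change 1.25, SE 0.36). Its adjusted p of 0.0341 was 0.125, 0.119, 0.0603 and 0.0679 without cortex 1 and 2 and dentate gyrus 1 and 2. Xylt1, which starts the chain, had an adjusted p of 0.0435 that was 0.0547 to 0.202 without each library in turn, 0.0603 with no filter, and a log2 fold change of 1.73. Of 7 tested chondroitin and dermatan sulfation genes, 3 were lower in cortex and 0 higher (median log2 fold change -0.55). Chst15, which adds the 6-O-sulfate of the chondroitin E unit that Ptn favours, had 42.7 and 24.3 CPM in cortex, against 70.5, 70.5 and 85.2 CPM in dentate gyrus (log2 fold change -1.17, SE 0.27, adjusted p 0.0133), but its adjusted p was 0.108 without cortex 2. Ust, a uronyl 2-O-sulfotransferase, had a log2 fold change of -0.96 and an adjusted p of 0.0372, which was 0.264 without cortex 2, 0.0588 without dentate gyrus 1 and 0.122 without dentate gyrus 3. Chst7 had 2 counts over the cortex libraries and 277 over the dentate gyrus libraries, a ratio of 0.0102 with an exact 95% interval of 0.00123 to 0.0373 for counting error only, and an adjusted p of 0.0695 without cortex 1. The count lower in cortex was 1 without cortex 2.

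In a list of receptors for chondroitin sulfate, their relatives and a coreceptor, 4 of 7 tested genes were higher in cortex and 0 lower (median log2 fold change 0.68). Lingo1, a coreceptor of the Nogo receptor complex, had 458 and 422 CPM in cortex, against 65.6, 108 and 92.3 CPM in dentate gyrus (log2 fold change 2.31, SE 0.2, adjusted p 3.61e-05). The phosphatase receptors Ptprd (1.13), Ptprf (1.42) and Ptprs (0.68) also had positive log2 fold changes that passed. The Ptprf adjusted p was 0.055 without cortex 2 and that of Ptprs 0.0706 without cortex 1, and 1 gene, Lingo1, was called with cortex 1 and dentate gyrus 2 both left out. Rtn4r, Rtn4rl1 and Rtn4rl2 were not called. Hyaluronan genes were mostly low: of 11, 8 were tested, 0 were higher in cortex and 1 was lower (median log2 fold change -0.70). That gene was Cemip, a hyaluronan-degrading protein gene, at 2.82 and 5.58 CPM in cortex, against 21.8, 21.7 and 21.7 CPM in dentate gyrus (log2 fold change -2.38, SE 0.43). Its adjusted p was 0.00375, and 0.0586 with cortex 1 and dentate gyrus 2 both left out.

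**Figure D4:**
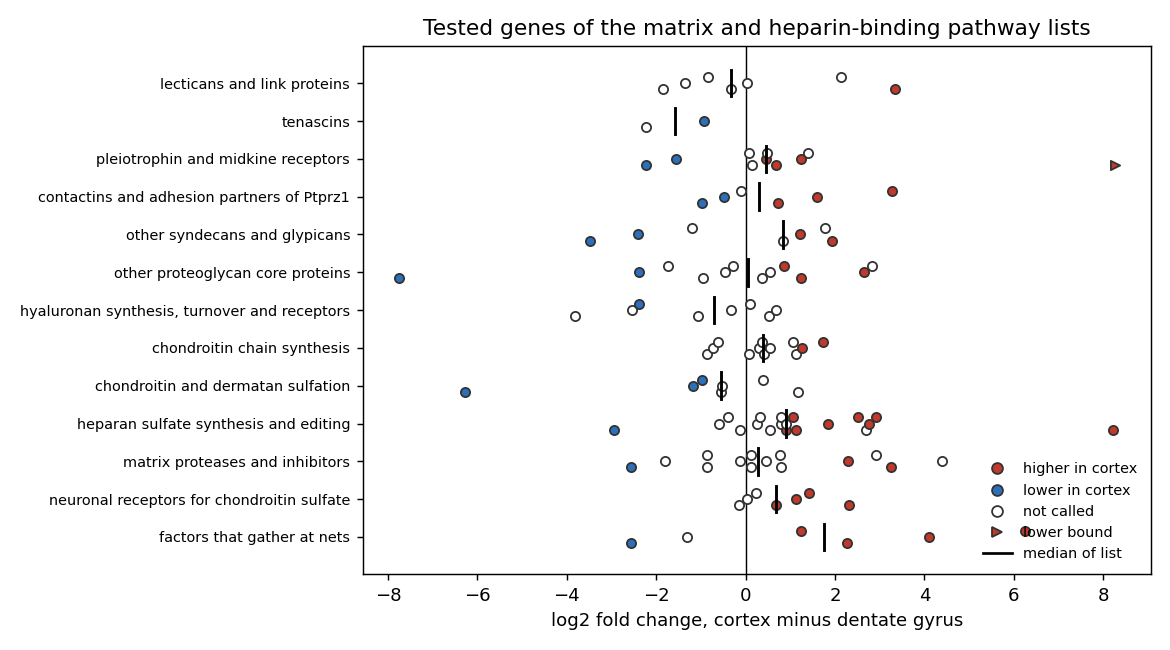
Log2 fold change, cortex minus dentate gyrus, of the tested genes in 13 lists; red and blue points are genes called higher and lower in cortex, white points genes not called, the triangle a lower bound for Itgb3, and the black bar the list median. Heparan sulfate genes have a median of 0.9 with 8 of 19 called higher in cortex, beside 10.8% of all tested genes. Chondroitin sulfation genes have a median of -0.55 with 3 of 7 called lower, beside 10.5% of all tested genes.

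Markers of other cells moved with tissue beside these results. Of 8 markers of interneurons other than the parvalbumin class, 6 were higher and 0 lower in cortex, with sums of 2080 and 1888 CPM in cortex, against 455, 458 and 468 CPM in dentate gyrus. Most of these sums in cortex came from the peptide genes Cck, at 1170 and 1044 CPM, and Sst, at 700 and 641 CPM. Cck is not confined to interneurons, and which cells gave this RNA was not tested. Of 8 parvalbumin interneuron markers, 3 were higher and 2 lower in cortex, with sums of 342 and 417 CPM in cortex, against 315, 311 and 355 CPM in dentate gyrus. Pvalb itself was at 27.5 and 11.7 CPM in cortex, against 0.0276, 0.267 and 0.431 CPM in dentate gyrus, and Gad2 and Erbb4 were the other markers of that list higher in cortex. Gad1, a GABA-synthesizing enzyme gene, was lower in cortex, at 26.6 and 41 CPM, against 71.6, 57.2 and 64.8 CPM in dentate gyrus (log2 fold change -0.93, adjusted p 0.0276 by edgeR). The potassium channel gene Kcnc1 was lower in cortex too (log2 fold change -0.52, adjusted p 0.0392 by edgeR). Of 8 cerebellar and brainstem markers, 4 were tested and 3 were higher in cortex. The list summed to 510 and 28.4 CPM in cortex 1 and 2, against 7.09, 9.59 and 3.37 CPM in dentate gyrus. The 3 were Car8 (411 and 1.44 CPM in cortex 1 and 2), Ebf2 (36.8 and 2.05) and Zic1 (10.2 and 3.28). Ebf2 overlapped between the tissues, and Cbln1, at 23.6 and 21.4 CPM in cortex 1 and 2, was not called. Of 7 tested markers of hippocampal CA pyramidal cells, 1 was higher in cortex and 0 lower. Of 3 tested microglia and 6 tested vascular markers, 0 were called by edgeR. Microglia markers summed to 8.53 and 9.52 CPM in cortex, against 0.911, 4.75 and 5.33 CPM in dentate gyrus, and vascular markers to 20.5 and 25.2 CPM in cortex, against 9.16, 33.4 and 15.1 CPM in dentate gyrus. The part of the interneuron, parvalbumin, and cerebellar and brainstem markers in the Ptn and Hapln4 results was not tested.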

How the data were processed

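RNA on tagged ribosomes was sequenced in 2 cortex and 3 dentate gyrus libraries. For each library the authors deposited unnormalized read counts by gene symbol, made with STAR 2.0.0e and HTSeq on mm10 per the submitters' processing notes. For HTSeq, neither version, annotation nor strand setting was found in the labels, so reads of overlapping antisense genes may share a count. Reads without a feature were 10.59% to 14.83% of all counted reads, reads that were not unique 25.03% to 31.76% and ambiguous reads 1.81% to 1.87%; none of these classes entered library sizes or tests.

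Computed here: trimmed mean of M values (TMM) scaling, filterByExpr and the quasi-likelihood F test in edgeR 4.0.16 (R 4.3.3) on tissue alone, with Benjamini-Hochberg adjustment over 14136 genes. All adjusted p-values come from it unless another tool is named. Likeness used log2 CPM with a prior count of 2. SE is the fold change divided by the root of the F statistic. Lists were described by counts and medians. Named genes were the members, 8 related genes (Acan, Hapln2, Hapln3, Tnc, Alk, Ltk, Cspg5 and Lrp1), up to 4 called genes per list with the smallest adjusted p and, in the higher tissue, 50 or more counts on average, and the 5 genes most like Ptn. The members and lists were chosen with earlier results of these data known. Exon lengths and positions are from GENCODE M21. The fit was tested on simulated counts. Alternatives were other scalings and filters, robust dispersion, DESeq2 1.42.0, limma 3.58.1 voom, a replicate block and leaving out libraries. Figures were drawn with matplotlib 3.10.9.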

Additional observations from a re-analysis of the deposited data

How the results depend on the processing

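Other scalings (RLE, upper quartile, total counts), removal of Rn45s, no filter and a stricter filter, robust dispersion, DESeq2 and limma voom kept the direction and the call of each of the 8 members tested other than Ptn, where they gave a value. Calls of members moved when libraries were left out or a block was added. Among other genes, those of Timp2 (adjusted p 0.129 with robust dispersion), Xylt1 (0.0603 with no filter) and Gpc3 (0.0874 by limma voom) were also lost under these settings. The total called rose to 3943 by DESeq2, 3792 with no filter and 3426 by limma voom. Over all genes, 3009 were called; the number was 1886 to 2775 without each library in turn and 1578 with cortex 1 and dentate gyrus 2 both left out. The number higher in cortex was 1528, with 913 to 1499 without each library, and the number lower was 1481, with 908 to 1276; with both out they were 807 and 771. Among members other than Ptn, the number lower in cortex, 2 with all libraries, was 1 to 2 without each library, the change being Tnr, whose log2 fold change was -1.11 to -0.74. The Bcan log2 fold change was -0.32 and reversed to 0.16 without cortex 2 and 0.12 without dentate gyrus 3, in a range of -0.98 to 0.16, and that of Ncan, 0.035, reversed to -0.053 without cortex 2, in a range of -0.053 to 0.14. The Ptn log2 fold change was 4.10 to 4.21 without each library and 4.23 without both. The cause was not tested for any of these.

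With a replicate block, 2237 genes were called, 1 member was lower in cortex, Tnr had a log2 fold change of -0.84 (adjusted p 0.0569) and Bcan 0.13. The numbers are not said to pair the libraries. Deviations of same-numbered libraries correlated at -0.004 and -0.016, and those of cortex 2 with dentate gyrus 1 and cortex 1 with dentate gyrus 2 at 0.004 and 0.016. With 2 cortex libraries the deviations of each mirror those of the other, so these values do not settle whether the numbers pair libraries. Of the list counts under the alternatives, 49 moved by more than 1.5 times and 367 did not. Genes near the floor of 3 counts, Mdk among them, are limited by depth.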

Other observations

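A list of contactins and of adhesion partners of Ptprz1 held genes that differed in both directions. Of 6 tested, 3 were higher and 2 lower in cortex. Cntn4, a contactin, had 61.8 and 61.5 CPM in cortex, against 2.15, 10.7 and 6.34 CPM in dentate gyrus (edgeR log2 fold change 3.28, SE 0.52, adjusted p 0.0017), and 3.89 without dentate gyrus 2. L1cam (1.59, SE 0.23) and Nfasc (0.72, SE 0.13) were also higher in cortex, although the Nfasc adjusted p was 0.0553 with cortex 1 and dentate gyrus 2 both left out. Ncam1 was lower, at 332 and 314 CPM in cortex, against 637, 637 and 634 CPM in dentate gyrus. Cntn1, named after its value was seen, had a log2 fold change of -0.47 and an adjusted p of 0.0118, which was 0.0712 and 0.069 without cortex 1 and 2 and 0.0504 without dentate gyrus 3.

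Of 6 factors that gather at nets, 4 were higher in cortex and 1 lower. Sema3a, a repulsive guidance cue held in nets, had 43.9 and 34.6 CPM in cortex, against 1.1, 3.29 and 2.47 CPM in dentate gyrus (log2 fold change 4.11, SE 0.47). Nptx1, a neuronal pentraxin, was lower, at 76.2 and 76.4 CPM in cortex, against 473, 434 and 443 CPM in dentate gyrus (-2.56, SE 0.13), while its relative Nptx2 was higher in cortex (2.26, SE 0.44, adjusted p 0.0905 without cortex 1). Reln had an adjusted p of 0.0409, which was 0.173, 0.109 and 0.0587 without cortex 1 and 2 and dentate gyrus 2. Otx2, named after its value was seen, had 67 counts over the cortex libraries and 1 over the dentate gyrus libraries, a ratio of 95 with an exact 95% interval of 16.5 to 3810 for counting error only. Its adjusted p was 0.0384, and it was 0.102, 0.372, 0.0698 and 0.0747 without cortex 1 and 2 and dentate gyrus 1 and 2. Only Sema3a remained higher in cortex without cortex 1, and 2 genes did without cortex 2 or without dentate gyrus 2. Without dentate gyrus 1, Crtac1 joined Nptx1 among those lower in cortex.

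Of 14 tested matrix proteases and inhibitors, 2 were higher in cortex and 1 lower. Serpine2, a protease inhibitor, had 62.8 and 41.3 CPM in cortex, against 3.34, 2.67 and 10.4 CPM in dentate gyrus (log2 fold change 3.25, SE 0.54), and 4.13 without dentate gyrus 3. Timp2, an inhibitor of metalloproteases, had 564 and 616 CPM in cortex, against 45.7, 229 and 88.7 CPM in dentate gyrus (2.29, SE 0.49). Timp2 had a log2 fold change of 3.15 without dentate gyrus 2 and an adjusted p of 0.129 with robust dispersion. Adamts1, which cleaves lecticans, was lower, at 3.76 and 2.01 CPM in cortex, against 19, 16.3 and 15.9 CPM in dentate gyrus (-2.56, SE 0.47). Without cortex 1, 2 were lower in cortex, since Mmp16 had an adjusted p of 0.0127, against 0.155 with all libraries.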
